A study of Mus musculus with 3 samples.

Results

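Cardiac potassium channel genes were followed through a map of Yap1 on chromatin of the mouse heart, obtained by chromatin immunoprecipitation and sequencing (ChIP-seq). The set held 10 genes: Kcnq1, Kcnh2, Kcna5, Kcnd2, Kcnd3, Kcnip2, Kcnj2, Kcnj3, Kcnj11 and Abcc9. A region belonged to a gene when the authors' gene list for that region held the symbol exactly, which gave 40 of 22020 regions. These 40 regions lay at 9 genes, and 1 gene, Kcnd2, had none. All hearts came from wild-type male C57BL/6J mice and were collected 7 days after surgery. The TAC library (anti-Yap1, n = 1) came from hearts after transverse aortic constriction, a narrowing of the aorta that puts the left ventricle under pressure load. The sham library (anti-Yap1, n = 1) came from hearts after the control operation. The design text names 3 mice for each operation, and the sources used here do not say whether their chromatin was pooled. A further library was unprecipitated input from both operations together, and its signal was not analysed here. No difference below has a replicate check or a test, so lower and higher describe these 2 libraries only.

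Yap1 is a transcriptional co-activator that is held in check by the Hippo kinases. It does not bind DNA by itself and reaches chromatin mainly through TEAD factors. Potassium channels carry the outward currents that end the cardiac action potential and the inward rectifier current that holds the resting potential. In the mouse ventricle, repolarization depends chiefly on the transient outward current and on Kv delayed rectifiers, and weaker repolarizing potassium currents are a known feature of the hypertrophied heart. Yap1 signal at a gene is not a measure of that gene's expression.

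Each region carries the authors' average signal over its length, their highest signal within it, and a mark for whether it was called in each library. Average signal is already per position, so that it can be set side by side between regions of different length. The ratio used below is log2((TAC + 1)/(sham + 1)) of average signal, which understates differences of weak regions. Read depth is unknown. Across all 22020 regions the median average signal was 7.46 in TAC and 10.6 in sham, and the median ratio was -0.54. The sources used here do not state how the libraries were scaled to each other, so each ratio is read against that median.

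The median Yap1 signal of the channel regions was below the median of all regions in both libraries, though single regions lay above it. As deposited, signal was lower in TAC than in sham at all 40 regions. That share is near that of the whole table, where 94.6% of regions were lower. Average signal ran from 3.10 to 12.5 in TAC, with a median of 5.52, and from 7.22 to 22.1 in sham, with a median of 9.74. The ranges overlap between regions, since 13 of the 40 TAC values lay at or above the lowest sham value. The median ratio was -0.75, which is 1.68-fold lower in TAC with 1 added to each signal, where all regions had a median 1.45-fold lower. Of the 40 regions, 31 (77.5%) were at least 1.5-fold lower in TAC, against 43.0% of all regions, and 6 were at least 2-fold lower, against 5.12%. Many regions are in the table through a sham call alone, 28 of the 40 and 11302 of 22020, so the count was also taken by call. Of the 12 channel regions called in both libraries 9 were at least 1.5-fold lower, against 32.0% of all such regions, and of the 28 called in sham only 22 were, against 55.2%. None was at least 1.5-fold higher, against 0.486% of all regions. The histogram of ratios shows the channel regions displaced to the lower side of the whole table, with 21 of 40 below its lower quartile of -0.72 and 1 above its upper quartile of -0.34.

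**Figure D1:**
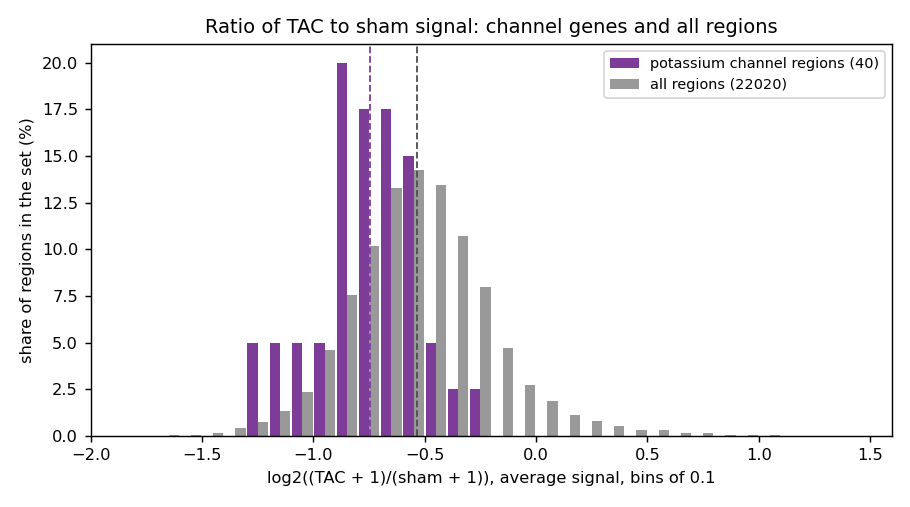
Share of regions (%) in each bin of 0.1 of the log2 ratio of TAC to sham average signal, for the 40 potassium channel regions (purple) and all 22020 regions (grey); dashed lines are the medians. The channel regions have a median of -0.75 and all regions a median of -0.54.

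The scale of the comparison sets how many regions count as changed. Once the median ratio of the whole table was subtracted, 3 of the 40 were at least 1.5-fold lower, where 2.31% of all regions were, and none was at least 1.5-fold higher, where 4.42% were. On that scale the direction is mixed: 33 regions lay below the median of the whole table and 7 at or above it, against 11010 of all 22020. The 3 regions past 1.5-fold were at the start of Kcnip2, deep inside Kcnd3 and inside Abcc9. All 3 are among the 28 channel regions called in sham only, against 4.19% of all regions called in sham only. Of the 12 channel regions called in both libraries none was past 1.5-fold, against 0.341% of all such regions. After quantile normalization of the libraries, 8 of the 40 had a ratio above 0, where the median of all regions was -0.03. None of the 3 regions past 1.5-fold after centring was past it then, and the region over Kcnj11 alone was (-0.59). The shares of all regions above 0 and past 1.5-fold after quantile normalization are not given here. By maximum signal, 26 of the 40 were at least 1.5-fold lower in TAC, against 47.6% of all regions, and none was that much higher, against 0.963%.

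All 40 regions had a call in sham, as had 96.6% of the whole table, and 12 (30.0%) had a call in TAC, against 48.7%. No channel region was called in TAC alone, and 3.40% of all regions were. The 12 regions called in both libraries were the stronger ones, with medians of 7.75 in TAC and 13.5 in sham, and the 28 called in sham only had medians of 5.14 in TAC and 9.14 in sham. Among the 16 channel regions at or above the median signal of the whole table, 12 had a TAC call, a share near the 76.5% of all such regions. All 12 TAC calls of the channel regions fell among these 16, and no weaker channel region had one. In the whole table, 8418 of the 10718 TAC calls fell among regions of that strength, so some weaker regions were called there. The same 16 regions had a median ratio of -0.78, and all regions of that strength -0.51.

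The authors' annotation placed a promoter in 13 of the 40 regions, against 44.41% of all regions, and a CpG island in 8, against 36.04%. Most of the rest lay inside the genes, 21 regions lay over 20 kb from the start and 8 over 100 kb. The share of all regions at these distances is not given here, so these 2 counts only describe the set. Of the 13 promoter regions, 9 were at least 1.5-fold lower in TAC, against 35.1% of all promoter regions. Of the 23 regions inside a channel gene and away from a promoter, 18 were, against 51.2% of all regions in genes without a promoter. These shares are not matched by call. Of the 13 channel regions 7 were called in sham only, against 3815 of 9779 promoter regions. Of the 23 channel regions 19 were, against 4782 of 7515 regions in genes without a promoter. Regions of a gene share their locus and are not replicates. Kcnd3 alone gave 11 of them, and without that gene 21 of 29 regions were at least 1.5-fold lower, with a median ratio of -0.70.

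**Figure D2:**
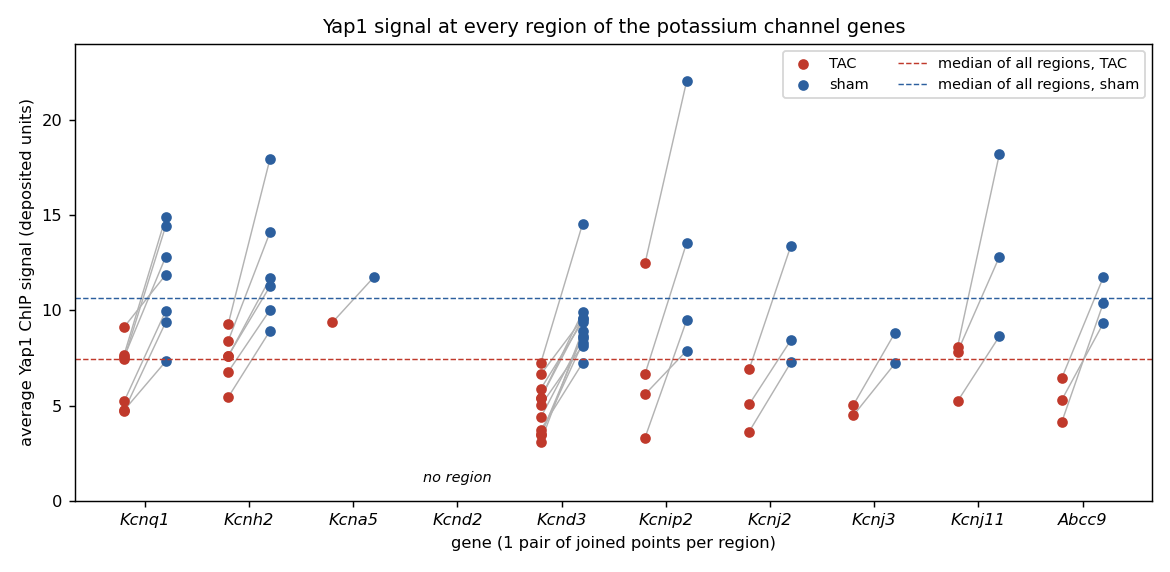
Average Yap1 signal in the authors' units at each of the 40 regions, with TAC (red, left) joined to sham (blue, right) for every gene; dashed lines are the medians of all regions, 7.46 in TAC and 10.6 in sham. Every line runs upward to sham, as 94.6% of all regions would, the highest pair belongs to Kcnip2 (12.5 in TAC and 22.1 in sham), and Kcnd2 has no region.

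Promoter sequences were available for most members, and those of Kcnh2 and Kcnj3 lie at an internal start of the gene. RefSeq windows of 300 bases (250 before the start and 50 from it, build GRCm38.p6, the assembly behind mm10) matched 8 of the 10 members, all but Kcnq1 and Kcnj11. Of these windows, 6 lay wholly inside a Yap1 region, and those of Kcnd2 and Kcnd3 did not. A search for GGAATG on both strands, the core that TEAD factors bind, found it in 2 of the 8 windows, at Kcna5 and Abcc9. It occurs in 14.7% of all 32851 windows of this length and in 12.7% of the 9646 that lie inside a Yap1 region. The AP-1 motif TGANTCA and AGATAA, which GATA factors bind, were in none of the 8. They are in 7.81% and 11.2% of all windows and in 5.06% and 5.95% of those inside a Yap1 region. The E-box CAGGTG was in the Kcna5 window only and is in 20.2% of all windows and 16.6% of those inside a Yap1 region. In the Kcna5 window it begins at the base after the TEAD core, with no overlap. A match of letters is a description and not a bound site.

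The windows below are those with a TEAD core (Kcna5, Abcc9), the start with the lowest ratio of TAC to sham (Kcnip2), the start of a ventricular inward rectifier with a call in both libraries (Kcnj2), and the start of the gene without a region (Kcnd2). They are printed 5′ to 3′ on the strand of the gene, and capitals mark the TEAD core.
Kcna5 (chr6:126535506-126535805, minus strand): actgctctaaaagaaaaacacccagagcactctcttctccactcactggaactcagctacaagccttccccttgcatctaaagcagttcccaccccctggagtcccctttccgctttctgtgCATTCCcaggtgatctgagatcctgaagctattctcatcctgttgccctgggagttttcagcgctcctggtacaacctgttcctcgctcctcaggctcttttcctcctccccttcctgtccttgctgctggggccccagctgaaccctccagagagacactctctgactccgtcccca
Abcc9 (chr6:142702225-142702524, minus strand): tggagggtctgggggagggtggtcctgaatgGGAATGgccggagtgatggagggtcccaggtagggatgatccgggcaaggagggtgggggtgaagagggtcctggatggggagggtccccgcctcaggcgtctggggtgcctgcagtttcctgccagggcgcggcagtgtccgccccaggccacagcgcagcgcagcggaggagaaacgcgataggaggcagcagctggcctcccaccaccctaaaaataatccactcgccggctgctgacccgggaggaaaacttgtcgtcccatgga
Kcnip2 (chr19:45816014-45816313, minus strand): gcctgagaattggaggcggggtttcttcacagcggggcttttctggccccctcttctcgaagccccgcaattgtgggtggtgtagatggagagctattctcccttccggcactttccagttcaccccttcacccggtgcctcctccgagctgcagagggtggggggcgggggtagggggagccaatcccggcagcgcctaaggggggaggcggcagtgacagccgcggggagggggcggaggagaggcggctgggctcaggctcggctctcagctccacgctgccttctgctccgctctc
Kcnj2 (chr11:111065914-111066213, plus strand): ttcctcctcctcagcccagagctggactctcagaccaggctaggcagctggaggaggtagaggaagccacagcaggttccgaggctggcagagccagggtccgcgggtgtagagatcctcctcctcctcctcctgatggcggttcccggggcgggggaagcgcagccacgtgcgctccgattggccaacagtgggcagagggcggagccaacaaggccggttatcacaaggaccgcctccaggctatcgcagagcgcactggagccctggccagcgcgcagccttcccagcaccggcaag
Kcnd2 (chr6:21215096-21215395, plus strand): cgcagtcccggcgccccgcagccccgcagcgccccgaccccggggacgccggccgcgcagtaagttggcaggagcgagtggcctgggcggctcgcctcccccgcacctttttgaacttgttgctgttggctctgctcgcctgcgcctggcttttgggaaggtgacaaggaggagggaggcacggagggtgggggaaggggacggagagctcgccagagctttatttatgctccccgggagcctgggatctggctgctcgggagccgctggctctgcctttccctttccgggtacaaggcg
The Kcna5 core begins at base -128 from the start and reads CATTCC on the printed strand, and the Abcc9 core begins at base -219 and reads GGAATG.

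The delayed rectifier genes had 7, 6 and 1 regions at Kcnq1, Kcnh2 and Kcna5. Kcnq1 encodes the pore subunit of the slow delayed rectifier (IKs), and had 7 regions on chromosome 7 that ran from 143105993 to 143434175. Its start region, from 143105993 to 143114171, holds a CpG island and had an average signal of 7.55 in TAC and 12.8 in sham (ratio -0.69). The next region inward, from 143116983 to 143126149, was the longest of the set at 9166 bp and had 7.67 in TAC and 14.9 in sham (-0.88). Both were called in TAC and sham.

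A Kcnq1 region 31994 bp inside the gene had 7.45 in TAC and 14.4 in sham (-0.87) and was called in sham only, and its maximum was 14 in TAC and 40 in sham. The region 46844 bp inside, from 143152942 to 143155255, behaved otherwise: it had 9.13 in TAC and 11.9 in sham (-0.35), was called in both libraries, and was the strongest Kcnq1 region in TAC. It was the fourth strongest of the gene in sham. So the order of regions along Kcnq1 differed between the libraries, while no spread is known against which to judge that.

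The remaining 3 Kcnq1 regions were weak and called in sham only. The region from 143210468 to 143211668 was also listed for Kcnq1ot1, the noncoding RNA transcribed from within Kcnq1 that silences neighbouring imprinted genes. It had 4.76 in TAC and 7.32 in sham (-0.53), and its midpoint lies beyond the far end of Kcnq1ot1, 85479 bp from that RNA's start. The regions 282145 and 325589 bp from the Kcnq1 start had 5.22 and 4.74 in TAC, against 9.98 and 9.39 in sham.

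Kcnh2 encodes the pore subunit of the rapid delayed rectifier (IKr, the ERG channel) and carried Yap1 regions over most of its length. Its 6 regions on chromosome 5, from 24318937 to 24353870, covered 66.7% of the gene. Kcnh2 is 32096 bp long, and of the 5094 protein-coding genes of 20 to 50 kb, 27 (0.530%) had as much or more of their length covered, with a median of 2.27%. The start region, from 24347177 to 24353870, merged 3 called intervals, held 2 CpG islands, and had 9.30 in TAC and 18.0 in sham (-0.88). The other 5 regions ran from 5.45 to 8.41 in TAC and from 8.93 to 14.1 in sham, with ratios between -0.68 and -0.50. The start of Kcnh2 thus had a lower ratio than each of the regions inside it.

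Of the inner Kcnh2 regions, only that from 24327632 to 24330803 was called in both libraries, with 7.63 in TAC and 11.3 in sham (-0.51). The RefSeq promoter window of Kcnh2, from 24329542 to 24329841, lies inside this region, at an internal transcript start and not at the outer end of the gene. The most distal region, 30507 bp from the outer start, was the single channel region with a higher maximum in TAC, 17 against 14 in sham, although its average signal was 5.45 in TAC and 8.93 in sham. Across the whole table, 8.06% of regions had a higher maximum in TAC.

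Kcna5 encodes Kv1.5, a pore subunit of the rapidly activating delayed rectifier, and had a single region with the ratio nearest 0 of the set. That region, on chromosome 6 from 126534023 to 126537602, spans the start and covers 51.0% of the gene. Its average signal was 9.38 in TAC and 11.8 in sham (-0.30), and it was called in both libraries. Its ratio was above 79.2% of all regions. By maximum signal the difference was larger, with 19 in TAC and 34 in sham (-0.81), so the small difference in average signal goes with a summit that was lower in TAC.

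**Figure D3:**
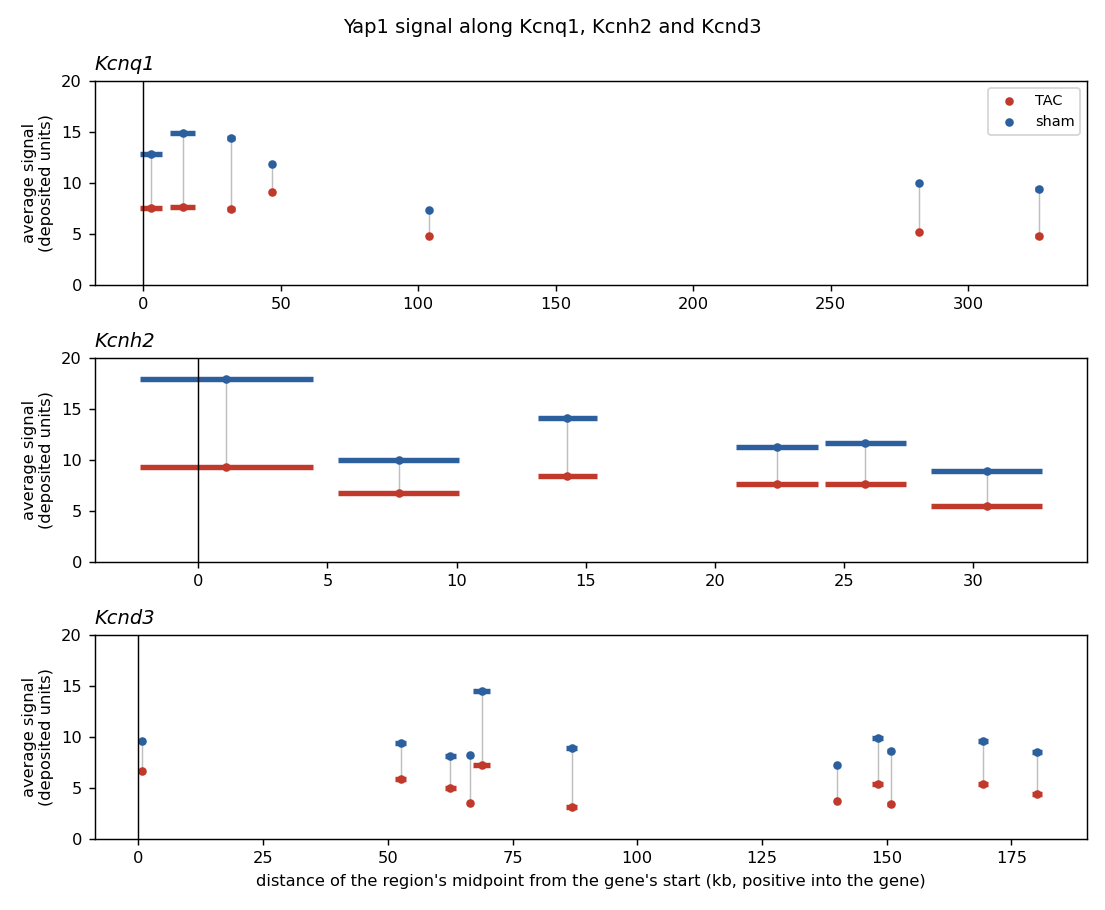
Average Yap1 signal of each region of Kcnq1, Kcnh2 and Kcnd3 against the distance of its midpoint from the gene's start in kb (positive into the gene; the scale differs between panels), with TAC in red and sham in blue and bars as wide as the region. Sham lies above TAC at all 24 regions, as it does at 94.6% of all regions, and the widest gap is at the start of Kcnh2 (9.30 in TAC and 18.0 in sham).

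The genes of the fast transient outward current (Ito) were split between a gene with no region and one with 11. Kcnd2 and Kcnd3 encode the pore subunits Kv4.2 and Kv4.3, and Kcnip2 encodes KChIP2, the calcium-binding subunit that brings Kv4 channels to the membrane. No region lay over Kcnd2 or within 10 kb of it on either side, although the gene spans 514460 bp. The nearest region was 103101 bp away, had no listed gene, and had 5.20 in TAC and 8.68 in sham. Long genes without a region were not rare: of 990 protein-coding genes of 200 kb or more, 611 (61.7%) had one, and of all protein-coding genes 53.2%.

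Kcnd3 had 11 regions on chromosome 3 between 105452596 and 105633533, and 112 of 13464 listed genes (0.832%) had as many or more. That share is not matched for length, and Kcnd3 is a long gene of 222113 bp. Per 100 kb it had 4.95 regions, between Kcnq1 (2.19) and Kcnh2 (18.7). Average signal was lowest at 3.10, had a median of 5.02 and was highest at 7.25 in TAC, while in sham these were 7.24, 8.94 and 14.5. Only the top TAC value lies at the bottom of the sham range. The region nearest the start, from 105452596 to 105453635, had the smallest difference in the gene, with 6.65 in TAC and 9.56 in sham (-0.47). It is shared with 1700095B22Rik, a noncoding RNA gene now named Kcnd3os, whose start is near its midpoint (-160 bp, upstream). The 10 regions further inside were all at least 1.5-fold lower in TAC as deposited, against 51.2% of all regions in genes without a promoter, with a median ratio of -0.81. Against the median of all regions 1 of them was, and after quantile normalization 2 of the 10 had ratios just above 0 (0.02 and 0.01). Only 1 of the 10 was called in TAC, and the rest are in the table through a sham call alone. Of all regions called in sham only, 55.2% were at least 1.5-fold lower as deposited. Regions of 1 gene are not replicates.

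The strongest Kcnd3 region, from 105519456 to 105522815, was the only one called in TAC and lies 68805 bp inside the gene. It had 7.25 in TAC and 14.5 in sham (-0.91), with a maximum of 30 in TAC and 42 in sham. A second region ends 14 bp before it and had 3.50 in TAC and 8.28 in sham (-1.04) without a TAC call. The lowest ratios of Kcnd3 were at the regions 86890 bp inside (3.10 in TAC and 8.94 in sham, -1.28) and 150792 bp inside (3.46 in TAC and 8.66 in sham, -1.12). The first of these stood at percentile 0.854 of all ratios.

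Kcnip2 had 4 regions on chromosome 19, and the region over its start had the lowest ratio of the set. That region, from 45814957 to 45817774, holds a CpG island and had 3.32 in TAC and 9.49 in sham, without a TAC call. Its ratio of -1.28 is 2.43-fold lower with 1 added to each signal, and the TAC signal as deposited was 34.9% of sham. Its maximum was 7 in TAC and 17 in sham. A neighbouring region 169 bp away, from 45812755 to 45814788 and just inside the gene, had 5.59 in TAC and 7.89 in sham (-0.43), among the smallest differences of the set. Upstream, the region from 45823574 to 45828269 had 6.66 in TAC and 13.6 in sham (-0.93) and was called in both libraries. These 3 regions were also listed for 9130011E15Rik, now named Armh3.

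The strongest region listed for Kcnip2 belongs by position to its neighbour. It lies from 45782125 to 45784670, 32406 bp from the Kcnip2 start and at -106 bp from the start of Mgea5, now named Oga, which encodes the enzyme that removes O-GlcNAc from proteins. It had 12.5 in TAC and 22.1 in sham (-0.77), the highest signal of the set in both libraries. Without it, the highest value at Kcnip2 was 6.66 in TAC and 13.6 in sham.

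**Figure D4:**
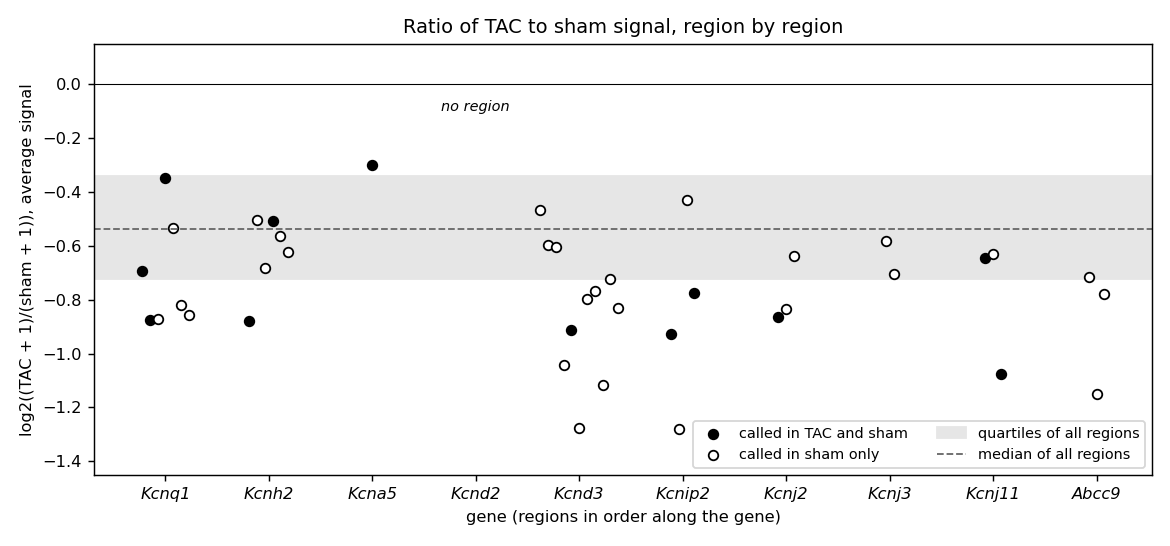
Log2 ratio of TAC to sham average signal at each region, in order along each gene; filled points were called in TAC and sham, open points in sham only, and the band shows the quartiles of all 22020 regions around their median of -0.54. The lowest points are the start of Kcnip2 and a region inside Kcnd3 (-1.28 each), and the highest is Kcna5 (-0.30).

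Among the inward rectifiers, Kcnj2 carried a clear start region and Kcnj3 weak ones. Kcnj2 encodes Kir2.1, the main pore subunit of the current (IK1) that sets the resting potential of ventricular myocytes. Its start region on chromosome 11, from 111064677 to 111070212, had 6.92 in TAC and 13.4 in sham (-0.86) and was called in both libraries. A region 7776 bp inside had 3.64 in TAC and 7.27 in sham (-0.83), and the region 21726 bp from the start, beyond the gene's end, had 5.07 in TAC and 8.44 in sham (-0.64). Both were called in sham only, and all 3 regions were at least 1.5-fold lower in TAC as deposited, against 43.0% of all regions. With the table's median subtracted none was, at -0.33, -0.30 and -0.10.

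Kcnj3 encodes GIRK1, which forms the acetylcholine-gated current (IK,ACh) with the product of Kcnj5 and is known mainly from atrial and pacemaker cells. It had 2 regions on chromosome 2, both called in sham only. Both lie inside the RefSeq gene, the first of them 19764 bp past its outer start, and near an internal start to which the authors' distances and the RefSeq promoter window refer. The region over that internal start, from 55434251 to 55437618, had 5.04 in TAC and 8.84 in sham (-0.70). The region at -4651 bp from it had 4.49 in TAC and 7.22 in sham (-0.58), the lowest sham signal of all 40 regions. Kcnj3 was the gene with the weakest top region in both libraries.

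The cardiac ATP-sensitive channel (KATP), which opens when ATP runs low, combines Kir6.2 from Kcnj11 with the sulfonylurea receptor SUR2A from Abcc9. Kcnj11 had 3 regions on chromosome 7, all shared with Abcc8, the next gene, which encodes the receptor SUR1. The region over Kcnj11, from 46095726 to 46101528, covers the whole gene and had 8.10 in TAC and 18.2 in sham (-1.08). This was the lowest ratio among the 12 channel regions called in both libraries. By maximum signal it had 28 in TAC and 44 in sham (-0.63), a smaller difference. The regions with midpoints at -4457 and -13784 bp from the start had 5.23 and 7.84 in TAC, against 8.63 and 12.8 in sham (-0.63 and -0.64), and of these only the farther one was called in TAC.

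Abcc9 had 3 regions on chromosome 6, none of them called in TAC. The region over its start, from 142700617 to 142702959, contains the promoter window printed above and had 5.30 in TAC and 9.34 in sham (-0.71). The region 11776 bp inside, from 142688956 to 142692041, had 4.14 in TAC and 10.4 in sham (-1.15), and its maximum of 9 in TAC and 33 in sham gave the lowest ratio by maximum signal in the set (-1.77). The region 33768 bp inside had 6.45 in TAC and 11.8 in sham (-0.78). The ratios of the regions over Kcnj11 and 11776 bp inside Abcc9 passed 2-fold as deposited, as 5.12% of all regions did. With the table's median subtracted they were -0.54 and -0.61, of which only that of Abcc9 passed 1.5-fold.

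**Figure D5:**
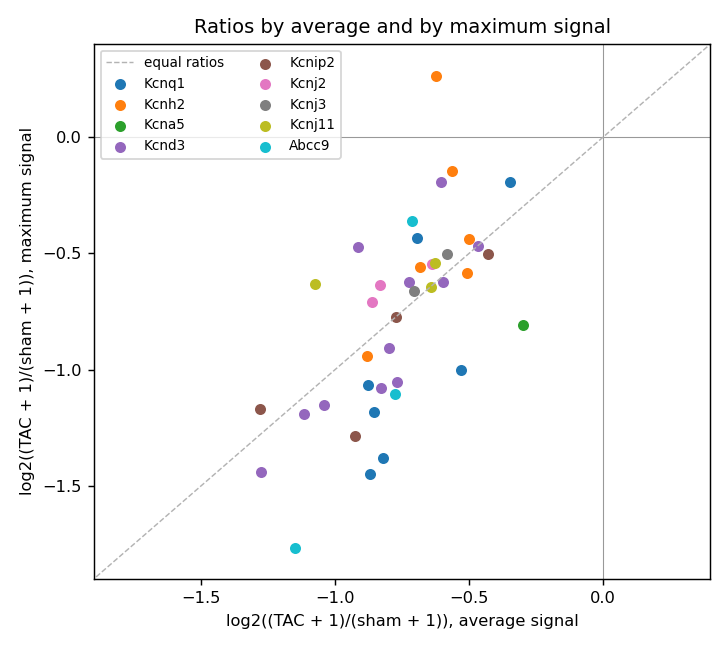
Log2 ratio of TAC to sham by maximum signal (vertical) against the same by average signal (horizontal) for the 40 regions, coloured by gene; the dashed line marks equal ratios. The 1 point above 0 by maximum signal is the distal Kcnh2 region (0.26 by maximum signal), the lowest is inside Abcc9 (-1.77), and Kcna5 lies below the line.

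The order of the genes by their highest average signal differed somewhat between the libraries. In TAC it ran from Kcnip2 (12.5, at Mgea5) through Kcna5 (9.38), Kcnh2 (9.30), Kcnq1 (9.13), Kcnj11 (8.10), Kcnd3 (7.25), Kcnj2 (6.92) and Abcc9 (6.45) to Kcnj3 (5.04). In sham Kcnip2 (22.1) was followed by Kcnj11 (18.2), Kcnh2 (18.0), Kcnq1 (14.9), Kcnd3 (14.5), Kcnj2 (13.4), Kcna5 (11.8), Abcc9 (11.8) and Kcnj3 (8.84). Kcna5 stood second in TAC and seventh in sham, and with 1 library per operation no neighbours in these orders can be said to differ. Represented by their strongest regions, 8 of the 9 genes were at least 1.5-fold lower in TAC, all but Kcna5, against 36.3% of all 13464 genes.

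Another 50 potassium channel and pacemaker genes gave a similar but smaller displacement. A region was listed for 28 of them (56.0%), near the 53.2% of all protein-coding genes. For 13 of the 28 the strongest region was listed for another gene too, and 1, at the noncoding RNA Kcnq1ot1, was also a member region. Of the 28 genes, 16 were at least 1.5-fold lower in TAC at their strongest region, against 36.3% of all genes. None was at least 1.5-fold higher, against 0.208%. Their median ratio was -0.62, where all genes had -0.50 and the 9 member genes -0.86. The lowest ratios were at Abcc8 (9.56 in TAC and 19.5 in sham, -0.96), Kcnq5 (4.45 in TAC and 9.50 in sham, -0.95) and Kcnn2, a calcium-activated channel gene (4.29 in TAC and 9.04 in sham, -0.93). This strongest Abcc8 region lies 17832 bp inside Abcc8 and is not one of those shared with Kcnj11.

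The highest ratios among those 28 genes were at Kcnj14 (9.88 in TAC and 8.67 in sham, 0.17), Kcnj12, a Kir2 partner of Kcnj2 (10.9 in TAC and 13.0 in sham, -0.23), and Dpp6, a Kv4 accessory subunit gene (5.86 in TAC and 7.31 in sham, -0.28). The Kcnj14 region is shared with Grwd1 and Grin2d, and by maximum signal its ratio was -0.07. Kcnq1ot1 had only the region shared with Kcnq1 described above. Among accessory subunit genes, Kcne1, Kcne2, Kcnab1, Kcnab2 and Dpp6 had a region, with ratios of -0.63, -0.46, -0.37, -0.61 and -0.28. The strongest regions of Kcne1, Kcne2 and Kcnab1, which gave these ratios, lie downstream of these genes, that of Kcnab1 271733 bp from its start. Those of Kcne2 and Kcnab1 are also listed for other genes. Kcne3, Kcne4, Kcne1l, Kcnip1, Dpp10, Kcnmb1 and Kcnmb4 had no region. Of the Kir3 genes that can pair with Kcnj3, Kcnj5, Kcnj6 and Kcnj9 had ratios of -0.71, -0.81 and -0.48. The Kcnj9 region lies downstream of that gene and is also listed for Igsf8. Kcnj8, the vascular KATP pore gene that pairs with Abcc9, had no region.

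Cardiomyocyte marker genes also had ratios below the median of all genes (-0.50). All 10 cardiomyocyte markers had a region, and their strongest regions summed to 86.8 in TAC and 161.7 in sham, with a median ratio of -0.80 and all 10 below the median of all genes. Atrial and conduction markers had a region at 4 of 6 genes and summed to 30.1 in TAC and 45.1 in sham, with a median ratio of -0.52; Sln and Nppa had none. The markers of other heart cells had higher medians, at -0.37 for 5 of 6 endothelial genes, -0.26 for 3 of 6 fibroblast genes and -0.29 for 5 of 8 smooth muscle and pericyte genes. Their strongest regions summed to 44.9 in TAC and 55.8 in sham for endothelial, 23.8 in TAC and 29.6 in sham for fibroblast, and 37.1 in TAC and 51.3 in sham for smooth muscle and pericyte genes. Of the neuronal and the hepatocyte markers, 2 of 6 each had a region, with sums of 16.4 in TAC and 22.9 in sham for neuronal and 10.7 in TAC and 22.0 in sham for hepatocyte genes, and median ratios of -0.52 and -0.93. The region used was shared with another gene at 5 of 10 cardiomyocyte, 2 of 4 atrial and conduction and 0 of 5 endothelial markers. It was shared at 2 of 3 fibroblast, 3 of 5 smooth muscle and pericyte, 1 of 2 neuronal and 2 of 2 hepatocyte markers. No region was listed for Emcn among the endothelial, for Dcn, Col1a2 and Postn among the fibroblast, for Pdgfrb, Rgs5 and Kcnj8 among the mural, or for Alb among the hepatocyte genes. In whole hearts, fewer cells of a type and less signal per cell cannot be told apart, and the part of cell composition in the channel gene ratios was not tested.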

How the data were processed

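The deposited table gives, for each merged region on mm10, the authors' average and maximum ChIP signal in each anti-Yap1 library, and marks of 0 or 1 for a call. Per the submitters' processing notes, reads were aligned with BWA and regions called with MACS 1.4.2. The sources used here do not give the scaling, fragment length, peak threshold or depth. No column belonged to the input library. Columns were matched to samples by the operation in their names, which also carry a number that the labels do not explain.

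Ratios were log2((TAC + 1)/(sham + 1)) of average signal. Folds were taken from these ratios, with 1 added to each signal, and counts used a fixed size of 1.5-fold. A region spans a start when its midpoint lies within its own length divided by 2 of that start. Gene values used the region with the highest mean signal. Gene lengths, names and promoter windows came from RefSeq tables of GRCm38.p6. Python 3.11.15, numpy 2.4.6 and pandas 2.3.3 were used, and ratio and count code was checked on simulated data. The members and lists were chosen with earlier results of these data known. All regions of all 10 members are named; of the other channel genes, the 3 highest, the 3 lowest and any sharing a member's region are named, and the accessory subunit genes, the Kir3 genes and Kcnj8 were chosen after their values were seen, as was the class of 20 to 50 kb for gene length. Alternatives covered the pseudocount, maximum signal, centring, quantile normalization, weak regions, calls, shared regions and the choice of region per gene.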

Additional observations from a re-analysis of the deposited data

How the results depend on the processing

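No paired analysis was possible because each operation has 1 library and no test was made. Of the 40 regions, 31 were at least 1.5-fold lower in TAC with a median log2 ratio of -0.75. The count was 13 with a pseudocount of 5, 6 at a 2-fold size, 3 after centring on the median of all regions and 1 after quantile normalization. The medians after centring and after quantile normalization were -0.21 and -0.19. Of all regions, 5.12% passed at a 2-fold size and 2.31% after centring. The shares with a pseudocount of 5 and after quantile normalization are not given here. Centring and quantile normalization remove the common difference between the libraries by construction, and 7 and 8 regions then had a ratio at or above 0. Among the 8 are 2 Kcnd3 regions past 1.5-fold as deposited, those 62508 bp (0.0151) and 140009 bp (0.0128) inside the gene. By maximum signal, the distal Kcnh2 region turned to 0.26. Fewer regions enter with calls in both libraries (12, of which 9 were lower) or with signal in the stronger portion of the table (16, of which 12 were lower). With a pseudocount of 0.5 (33 lower), by maximum signal (26), with regions listed for 1 gene (25) or with each gene left out in turn (median -0.78 to -0.70), the direction was kept and the values stayed within 1.5 times the count or 0.25 of the median. For the other channel genes, the mean over regions gave 15 and maximum signal 14 lower genes, in place of 16. Depth is unknown, so that the counting error of weak regions could not be set, and 1 library per operation leaves variation between mice unmeasured.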
